A study of Drosophila melanogaster with 6 samples.

Results

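The genes described here were 180 Drosophila genes known in the count table by no more than a CG number, whose RNA was lower in eye disc nuclei under ER stress than in control nuclei. They were picked by their measured levels, in CPM, which are counts scaled to a common library total that leaves out ribosomal RNA genes. A gene with a symbol of the CG form was taken when its mean in controls was at least 5 CPM, its mean under ER stress was at most 50% of the control mean, and its highest ER-stress library lay below its lowest control library. CG2918 was left out by the rule. Among the 17433 genes listed, 6958 had such a symbol, 3121 of these reached 5 CPM in controls, and 180 met every condition. The same values chose the genes, so their levels and fold differences are given as a description and carry no test. RNA was sequenced from nuclei of the eye imaginal disc, the larval epithelium that forms the adult eye, dissected from larvae late in their last instar. The 3 control samples (WT) carried GMR-GAL4 and uas-EGFP::Msp300-KASH, a driver active behind the morphogenetic furrow and an EGFP tag of the nuclear envelope that served to pull the nuclei down. The 3 GMR>Rh-1G69D samples carried the same driver and tag, and in addition uas-Rh-1G69D, which makes a misfolding form of the rhodopsin Rh1 and imposes ER stress. Each sample pooled the discs of many larvae. Both transgenes depend on GMR, so only cells of that domain were meant to be tagged and stressed.

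A CG number is the identifier a Drosophila gene receives from the genome annotation before it is studied by name. Many such genes are short and weakly expressed, and fly genes often lie nested in the introns of larger genes, on either strand. In nuclear RNA, unspliced transcripts of the larger gene are present together with mature mRNA. Reads from such a transcript cover the same bases as a gene nested in its intron. Late in larval life the cells behind the furrow differentiate as photoreceptors, cone cells and pigment cells, and photoreceptors switch on neuronal genes with long introns.

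Libraries held between 21773452 and 30884519 counts, of which ribosomal RNA genes took 7.70% to 20.5%. ninaE, the Rh1 gene and so the label check, was at 3.23, 43.2 and 2.65 CPM in control replicates 1, 2 and 3 and at 179, 213 and 272 CPM in GMR>Rh-1G69D replicates 1, 2 and 3, so control replicate 2 stood above the other controls and below every stressed library. Libraries are given in this order throughout. The 5 markers of the GMR domain (gl, elav, chp, sev and lz) summed to 2318–3319.7 CPM in controls and 1466–1708 CPM in GMR>Rh-1G69D, and none was at 0. The 6 hemocyte markers, none at 0 in every library, summed to 131–169 against 302–342 CPM, and the 4 muscle markers, none at 0, to 194–321 against 438–789 CPM. The 4 fat body markers, of which Lsp1alpha was at 0 in 2 controls, and the 5 salivary glue genes reached 790 and 1199 CPM in control replicate 3 alone, while in the other controls they lay at 23.8–38.4 and 28.1–349 CPM. In GMR>Rh-1G69D the fat body sum was 9.77–66.3 CPM and the glue sum 1.63–109 CPM, with Sgs1 at 0 in replicate 1. The 7 markers of the anterior eye and antenna summed to 2375–4220.1 CPM in controls and 2188–2545 CPM under stress, and the 4 glial markers to 200.3–210 and 176–202 CPM. The part of these other cell types in the results was not tested. In bulk RNA, fewer cells of a type and less RNA per cell cannot be told apart.

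Most of the 180 genes were low in controls and a few were abundant. Their mean control level ran from 5.13 to 1645 CPM with a median of 16.6, and 103 were under 20 CPM while 20 reached 100 CPM. The ratio of the group means was 2.65-fold at the median and ran from 2.01- to 83.01-fold. It was under 3-fold in 110 genes, 3- to 4-fold in 32 and at least 4-fold in 38, of which 4 reached 10-fold. Large ratios sat among low genes: the 55 genes at 5 to 10 CPM ran up to 51.9-fold and the 48 at 10 to 20 CPM up to 83.01-fold, while the 22 at 50 to 200 CPM stayed at or under 3.91-fold. The 13 genes at 200 CPM or more lay between 2.06- and 4.07-fold. In 34 genes the lowest control was at least 2 times the highest GMR>Rh-1G69D library, and in 37 it was less than 1.2 times as high. As a share of the CG genes that reached 5 CPM in controls, the 180 were 5.77%. Under the same conditions 3.48% of the genes with a name were lower (175 of 5030), and 6.12% of CG genes were higher when the conditions were mirrored (194 of 3169).

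**Figure D1:**
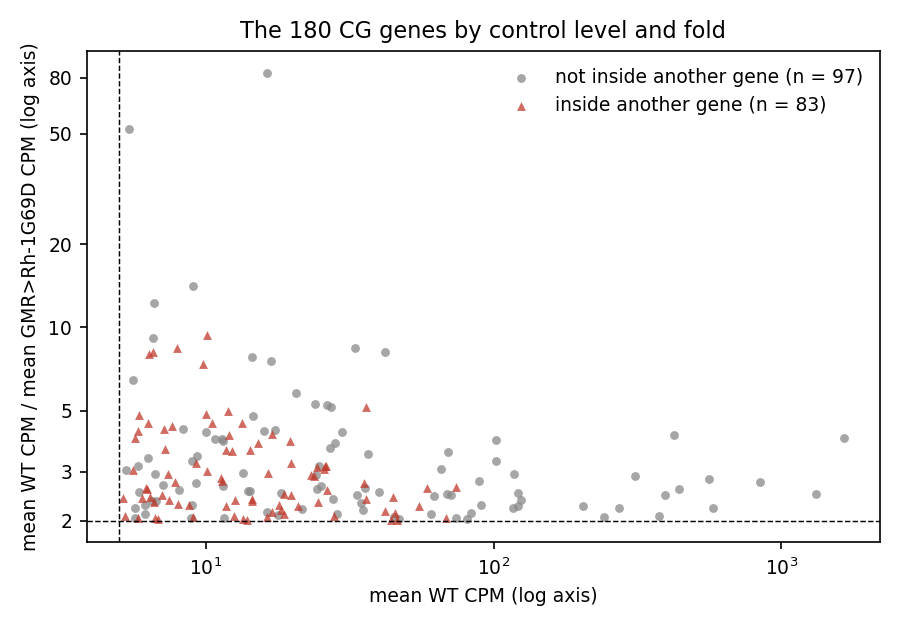
Each of the 180 genes by its mean control CPM (x axis, log) and the ratio of mean control to mean GMR>Rh-1G69D CPM (y axis, log); triangles are the 83 genes that lie inside another protein-coding gene, circles the other 97, and dashed lines the limits of 5 CPM and 2-fold. Ratios above 10-fold occur at low control levels, and no gene inside another one exceeds 74.1 CPM.

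In edgeR's quasi-likelihood test over 11818 genes, 3.72% of all genes tested were lower at a Benjamini-Hochberg adjusted p under 0.05 (440 genes). Of the 180 genes, all were tested and 113 were among these. Since the same contrast chose them, this count only shows how far their replicate spread allowed a call. It was larger at higher levels: 12 of 55 genes were called at 5 to 10 CPM, 28 of 48 at 10 to 20 CPM, 38 of 42 at 20 to 50 CPM, and 35 of 35 at 50 CPM or more. The median standard error of the log2 fold change went over the same bands from 0.550 at 5 to 10 CPM to 0.234 at 200 CPM or more. Their median log2 fold change was -1.55, against 0.04 over all genes tested.

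The genes with the most control reads were led by CG34377, at 1760, 1871 and 1305 CPM in controls and 426, 389.6 and 427 CPM in GMR>Rh-1G69D. Its lowest control was 3.06 times its highest stressed library. An antisense noncoding RNA, CR46261, shares 245 exon bases with CG34377 and was itself lower, at 24.6, 28.8 and 22.8 against 2.24, 2.35 and 2.61 CPM (log2 fold change -3.54 ± 0.330 SE, edgeR adjusted p = 0.000243). CG33978, on chromosome 4, followed at 2096, 967 and 881 against 369, 667 and 547 CPM. Control replicate 1 stood well above the others, and without that library its ratio was 1.75-fold in place of 2.49-fold, below the limit of the rule. CG17816 also had a high control replicate 1, at 1223, 646 and 659.7 against 231, 365 and 320.1 CPM. Its ratio was 2.14-fold without that library, in place of 2.76-fold, and so stayed above the limit. The next were closer between replicates. CG13300 gave 642, 628 and 465 CPM in controls and 224, 312 and 242 CPM under stress. CG4374 gave 601, 676 and 401 against 191, 209.5 and 191 CPM. For both, the 3 stressed libraries lay well under the controls, and control replicate 3 was the lowest control.

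CG42238 was at 514, 487 and 319 CPM in controls and 182, 171 and 156 CPM in GMR>Rh-1G69D. CG43366 was at 449.5, 482 and 339.6 against 88.6, 108 and 116 CPM, the largest ratio among these abundant genes at 4.07-fold. CG42747 was at 471, 440.1 and 273 against 168, 164 and 146 CPM. In each of these the stressed libraries lay close together, and all were below the lowest control, as the rule required. CG2865 was at 475, 321 and 328 against 140, 219.7 and 179 CPM, with a narrower gap between the groups. CG31038 was at 339, 355 and 232 against 109, 106 and 105 CPM. CG32521, named Mnr in the reference annotation, was at 317, 267 and 231 against 120.2, 116 and 131 CPM, and CG42321 (ATP8A) at 232, 297 and 196 against 132, 118 and 102 CPM. Replicate 3 was the lowest control in 10 of these 12 genes. Per gene length, the authors' FPKM put CG34377 first among the 12 at 272 in controls, followed by CG42747 at 121, CG13300 at 117 and CG17816 at 102 FPKM. The 5 genes with the most control CPM held 41.6% of the summed control CPM of the 180.

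**Figure D2:**
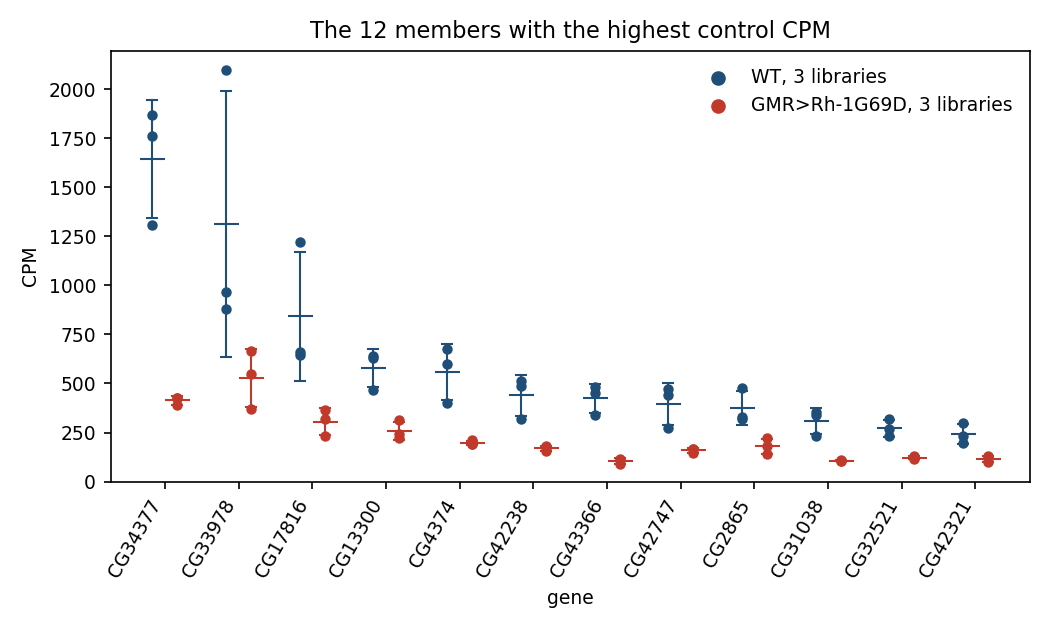
CPM in each library (points) of the 12 genes with the highest mean control CPM, with the mean (bar) and SD (error bars) of the 3 libraries per genotype, controls in blue and GMR>Rh-1G69D in red. The red points lie below the blue points of the same gene in all 12, as the rule requires, and the controls of CG33978 and CG17816 spread most.

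Of the 12 genes with the largest ratio of control to stressed mean, 10 were under 20 CPM in controls. CG14850, named Jig, a single-exon gene of 587 bases, was at 38.4, 4.46 and 5.86 CPM in controls and 0, 0.534 and 0.0532 CPM in GMR>Rh-1G69D. Its 83.01-fold ratio leaned on control replicate 1, and without that library it was 26.4-fold. CG31698 was at 3.54, 2.69 and 10.02 against 0.0466, 0.0534 and 0.213 CPM. Here control replicate 3, the library rich in glue and fat body RNA, was the highest, and the ratio without it was 29.8-fold in place of 51.9-fold. CG14079 was carried by one control, at 0.923, 17.1 and 1.63 against 0.326, 0.587 and 0.692 CPM, and its 12.3-fold ratio became 2.38-fold without control replicate 2. For CG15631 all controls were high, at 13.3, 9.62 and 4.11 against 0.700, 0.320 and 0.905 CPM. The controls of CG14422 were more even, at 9.80, 10.96 and 9.41 against 0.606, 1.71 and 0.905 CPM. CG34245 was at 10.6, 6.08 and 2.89 against 0.373, 1.23 and 0.532 CPM. These last 3 had every stressed library at or under 1.71 CPM.

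CG10996 was at 6.77, 14.7 and 2.32 against 0.326, 0.587 and 1.92 CPM, and its highest stressed library came near its lowest control. CG8072, at 6.21, 9.86 and 3.54 against 2.15, 0.0534 and 0.213 CPM, had a ratio of 49.1-fold in place of 8.13-fold when GMR>Rh-1G69D replicate 1 was left out. CG34188 was at 8.62, 8.27 and 2.08 against 1.35, 0.267 and 0.745 CPM. The remaining 3 were better covered. CG1850 was at 30.2, 27.2 and 41.3 CPM in controls and 2.66, 1.55 and 7.56 CPM under stress, and control replicate 3 was its highest. CG45105 was at 47.8, 46.6 and 31.1 against 1.73, 5.77 and 7.93 CPM, a clear separation at a moderate level. CG5217 was at 14.9, 17.4 and 11.2 against 0.233, 1.17 and 4.15 CPM and spread widely within the stressed libraries. Single stressed libraries weighed on several of these ratios: without GMR>Rh-1G69D replicate 3 they were 108-fold for CG31698, 17.3-fold for CG10996, 15.6-fold for CG1850 and 20.6-fold for CG5217. Without replicate 2 the ratio was 611-fold for CG14850 and 14.4-fold for CG34245, without replicate 1 it was 12.5-fold for CG34188, and without control replicate 2 it was 4.82-fold for CG10996. Over all 180 genes, leaving out one library moved the ratio by more than 1.5 times in 24, none of them at 50 CPM or more, and brought it under 2-fold in 54.

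The reference annotation gives 19 of the 180 a name other than the CG number, and the 12 of these with the highest control CPM are given by value. CG42313 (side-II) and CG34114 (side-VI) are members of the sidestep family of immunoglobulin-domain surface proteins, whose founder sidestep guides motor axons. side-II was at 124, 142 and 87.8 CPM in controls and 39.6, 49.9 and 30.01 CPM in GMR>Rh-1G69D, 2.96-fold lower. side-VI was at 139, 152 and 74.1 against 43.1, 65.9 and 52.3 CPM, 2.26-fold lower. Both had their lowest control in replicate 3. CG15630 (fipi), an immunoglobulin-domain protein, was at 70.2, 78.1 and 64.3 against 44.5, 17.1 and 24.1 CPM, and its stressed libraries differed among themselves more than its controls. CG4587 (stol), an α2δ subunit of voltage-gated calcium channels, was at 171, 114 and 86.9 against 45.6, 53.3 and 57.8 CPM.

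CG42321 (ATP8A), given above, is a P4-type ATPase, a family that moves phospholipids between the leaflets of a membrane. CG32698 (CARPB) and CG1402 (CARPA) are related to carbonic anhydrases. CARPB was at 87.5, 62.9 and 56.03 against 24.1, 35.9 and 22.5 CPM and CARPA at 52.1, 49.9 and 32.7 against 17.02, 25.8 and 22.2 CPM, 2.50- and 2.07-fold lower. CG8213 (flz, filzig), a serine protease, was at 28.5, 50.2 and 30.9 against 7.18, 14.2 and 9.95 CPM. CG11966 (ich) is a zinc-finger transcription factor. It was at 44.8, 21.3 and 12.6 against 9.05, 1.23 and 4.79 CPM, and its libraries spread widely in both genotypes. CG14516 (superdeath) was at 58.4, 114 and 93.7 against 23.8, 37.8 and 34.3 CPM. CG9509 (fiz) was at 47.5, 37.1 and 41.2 against 15.1, 21.1 and 21.98 CPM, with controls within a narrow range. The remaining renamed genes were Targ, mah, Fatp3, Mzt1, Nepl14, CNT2 and Jig.

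All 180 genes were protein-coding and matched the reference annotation (Ensembl release 115, in dm6 coordinates). They lay on 2L (17 genes), 2R (31), 3L (35), 3R (55), chromosome 4 (1) and X (41). A feature that the rule did not use was their position. Of the 180, 83 (46.1%) lay wholly inside the span of another protein-coding gene, here called the host. Among the 2939 other CG genes at 5 CPM or more in controls this share was 11.2%, and among 4930 named genes 5.54%. When the rule was applied with one library left out in turn, a setting added after seeing the data, the share was 42.8% to 48.9%. The difference was present within classes of level. Under 20 CPM, 61 of 103 genes (59.2%) were nested, against 16.03% of 1441 other CG genes. At 50 CPM or more, 4 of 35 (11.4%) were nested, against 3.91% of 768.

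The 83 nested genes were small, with a median span of 1339 bases, and were at 12.5 CPM in controls at the median, while the other 97 had median values of 4786 bases and 25.2 CPM. Their median ratios were 2.62- and 2.67-fold. The nested genes summed to 1662, 1731 and 1069 CPM in controls and 548, 619.7 and 534 CPM in GMR>Rh-1G69D. In 79 of the 83, no exon base was shared with a host, so the gene lay within introns. The strand setting of the counting is not stated, and reads from opposite strands may therefore not have been told apart. Of all 180 genes, 30 shared exon bases with a gene on the other strand (median 5.92% of their exon bases) and 4 with a gene on the same strand. These shares, 16.7% and 2.22%, were lower than the 34.6% and 5.89% of other CG genes at 5 CPM or more in controls.

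**Figure D3:**
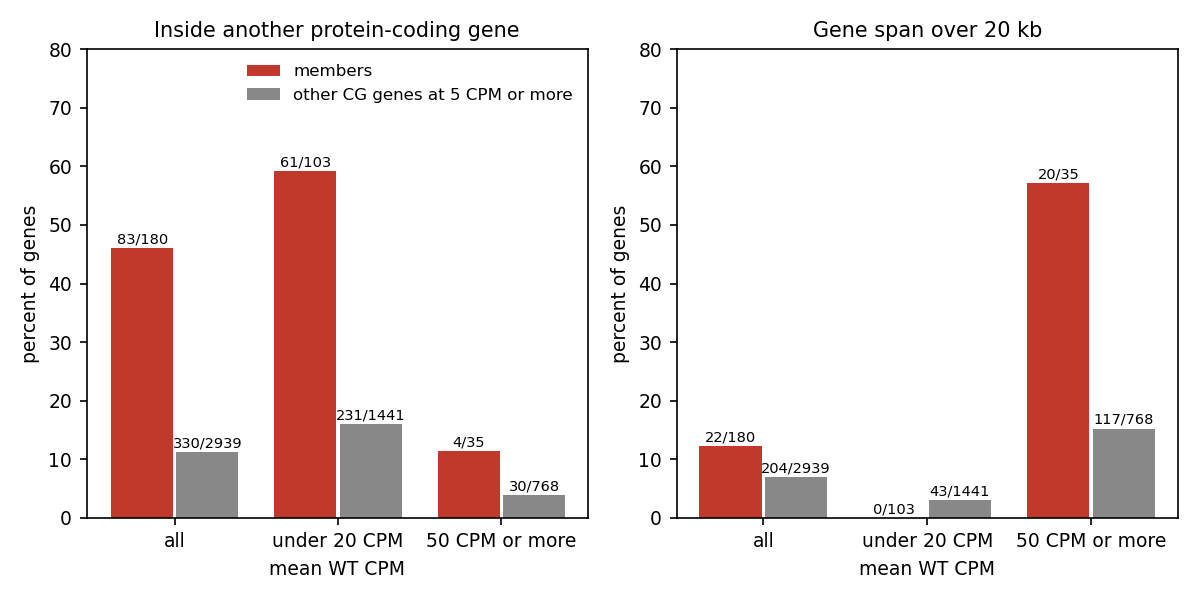
Percent of genes that lie inside another protein-coding gene (left) and that span over 20 kb (right), for the 180 genes (red) and the other CG genes at 5 CPM or more in controls (grey), in all and by mean control CPM; the counts stand above the bars. The red bars are taller for nesting in every class, and for long spans at 50 CPM or more, where 20 of 35 genes against 117 of 768 span over 20 kb.

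Many hosts were lower as well. The 83 genes had 70 hosts between them, of which 66 were tested. Of these, 5 were themselves among the 180 genes (CG32521, CG7991, CG1504, CG42313 and CG4374) and so were chosen for being lower. Of the 61 others, 53 had a log2 fold change below 0, with a median of -0.77, and by the edgeR test over all genes 23 (37.7%) fell and none rose. The number that fell was 11, 13 and 43 without control replicates 1, 2 and 3 and 7, 17 and 8 without GMR>Rh-1G69D replicates 1, 2 and 3. The hosts were long genes, which fell more often than the 3.72% of all genes. Beside them stand 936 tested hosts that hold other tested nested genes and none of the 180, of which 73 (7.80%) fell. At spans of 20 to 50 kb, 10 of 18 hosts of the 180 fell against 26 of 265 (9.81%) of these other hosts, and at 50 kb or more 10 of 29 (34.5%) against 32 of 165 (19.4%). Under 20 kb 3 of 14 fell against 15 of 506 (2.96%). The hosts were compared in the same libraries that chose the 180, so these counts are a description. The host was transcribed from the same strand for 27 nested genes and from the opposite strand for 57, one gene having a host of each kind. Over 85 pairs of a nested gene and a tested host, hosts among the 180 included, the host was below 0 in 26 of 27 same-strand pairs and 49 of 58 opposite-strand pairs. The median host change was -0.99 on the same strand and -0.80 on the opposite strand, against -1.66 and -1.46 for the nested genes. Nested genes were further below 0 than their hosts in 78 pairs, which their choice by fold favours, and lay within 0.5 of the host in 22.

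The same held in a weaker form for nested genes at large. Among 1699 pairs of another tested nested gene and its tested host, the median log2 fold change of the nested gene was -0.45 and that of the host -0.27, and Pearson's r across pairs was 0.438 (0.501 over 611 same-strand pairs and 0.401 over 1088 opposite-strand pairs). Within the 85 pairs it was 0.526. These correlations are across genes that share libraries and often a host, and are given as a description. Read from the host's side, 73 CG genes at 5 CPM or more lay inside a host that fell, and 40 of them (54.8%) were among the 180. Of 241 CG genes in hosts below 0 that were not called, 35 (14.5%) were, of 100 in hosts above 0, 10 were, and of 2708 in no host, 97 (3.58%) were. A gene with more than one host is counted in each class it meets.

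**Figure D4:**
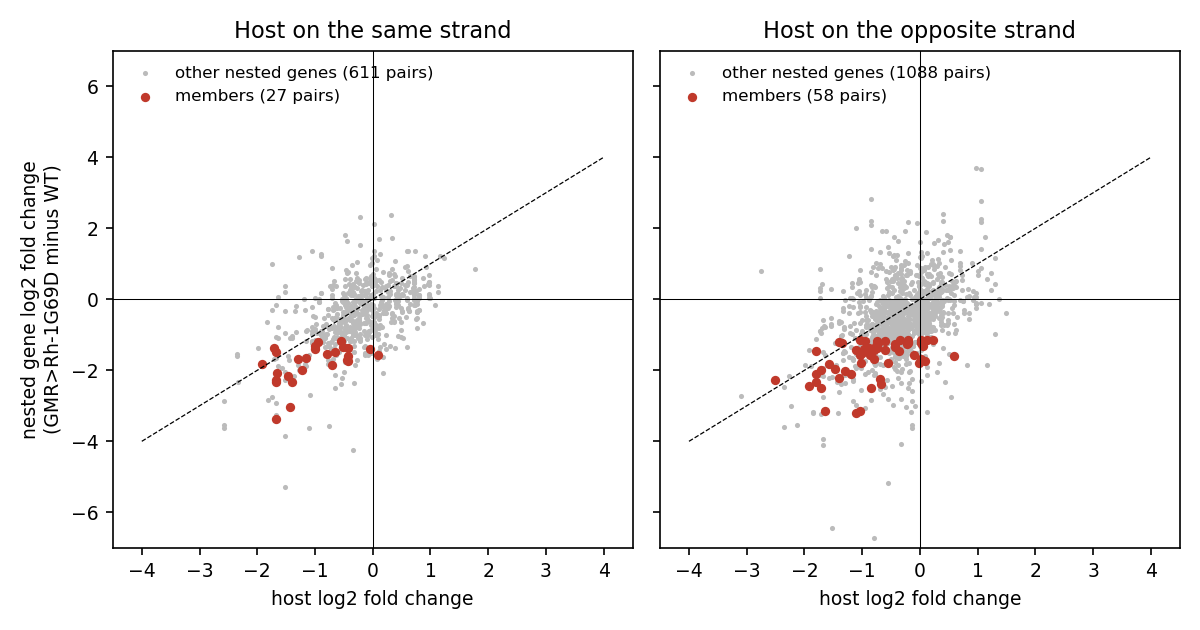
Log2 fold change (GMR>Rh-1G69D minus WT) of a nested gene (y axis) and its host (x axis) for pairs on the same strand (left) and on opposite strands (right), with the 85 pairs of the 180 genes in red and the other tested pairs in grey; the dashed line marks equal change, and 1 grey pair lies outside the axes. Most red points have a host below 0 and lie below the dashed line.

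The gene kirre, an immunoglobulin-domain adhesion protein that arranges the cells of the ommatidium, held the most members. It fell from 244, 207 and 147 CPM in controls to 62.5, 71.6 and 73.7 CPM in GMR>Rh-1G69D (log2 fold change -1.68 ± 0.241 SE, adjusted p = 0.00264, edgeR). In its introns, on the same strand, CG32793 was at 12.6, 10.4 and 8.51 against 2.57, 2.19 and 2.23 CPM and CG14422 at the values given above. CG14420 was at 9.54, 9.62 and 3.71 against 2.80, 1.92 and 0.479 CPM and CG3603 at 24.6, 16.1 and 15.2 against 6.86, 7.96 and 7.66 CPM. The 4 genes lie between bases 2929796 and 2949120 of the X chromosome. The interval holds 5 other tested genes, and all 5 were below 0, from -3.30 (CG3598) to -1.07 (CG14423). CG14423 was at 8.36, 8.24 and 5.94 against 8.91, 2.14 and 0.798 CPM, so its stressed replicate 1 lay above every control. CG3598 missed the level limit with 4.91 CPM in controls. Of the 5, CG3598 and CG14421 fell by the edgeR test (adjusted p = 0.0353 and 0.0327). As a percent of its own control mean kirre was at 31.3%, 35.9% and 36.96% in the stressed libraries, and CG3603 at 36.8%, 42.6% and 41.1%.

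Cow (Carrier of Wingless), which encodes a secreted protein that binds the Wingless signal, fell from 714, 657 and 559.6 to 209, 217 and 189.9 CPM (log2 fold change -1.79 ± 0.208 SE, adjusted p = 0.00067, edgeR). Nested in it on the opposite strand, on 3R between bases 23091724 and 23100983, were CG17110, CG17109 and CG6738. CG6738 was at 26.8, 17.4 and 14.7 against 3.50, 8.86 and 2.82 CPM and CG17109 at 8.77, 7.28 and 5.05 against 3.92, 2.35 and 2.23 CPM. CG17110 was at 8.41, 6.79 and 3.71 against 1.31, 1.98 and 0.905 CPM, but 91.8% of its exon bases are shared with CG6726 on the same strand, so the split of reads between the pair is uncertain. The other tested genes of the interval, CG6726 and CG6733, were also below 0, at -2.33 and -1.12, without passing the test.

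**Figure D5:**
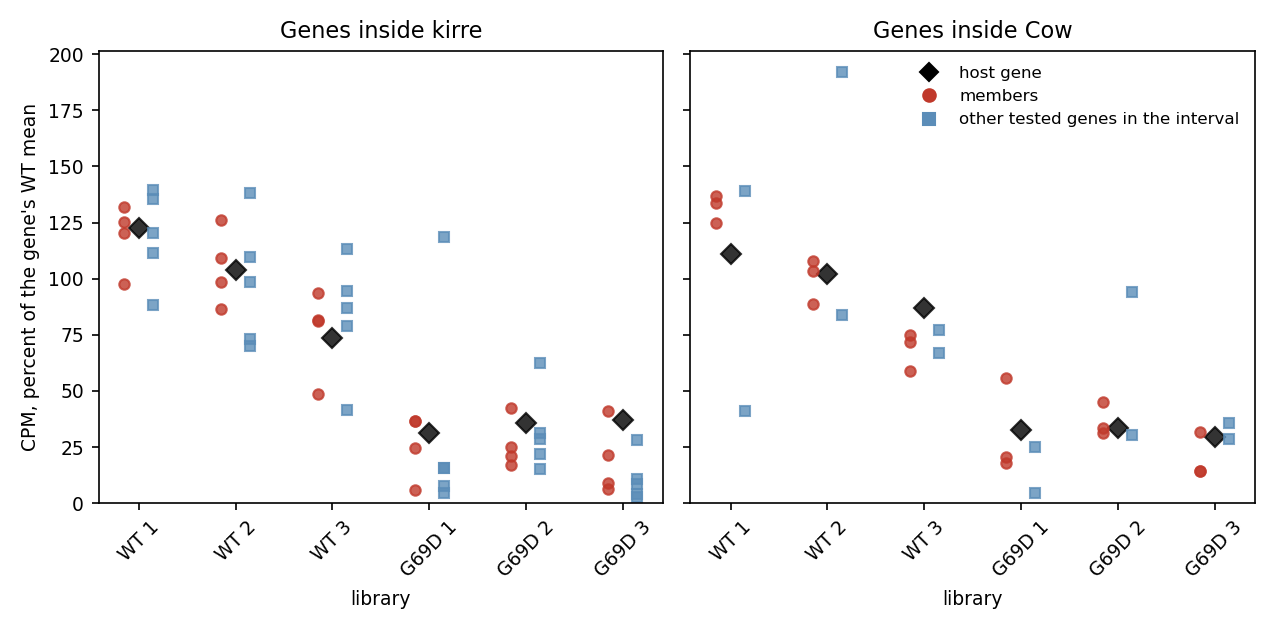
CPM in each library, as a percent of the gene's own control mean, for kirre and 9 tested genes of one interval inside it (left) and for Cow and 5 tested genes inside it (right); black diamonds are the hosts, red circles the members of the 180 and blue squares the other genes. In GMR>Rh-1G69D the hosts lie between 29.5% and 36.96%, and the members between 6.03% and 55.7%. The other genes spread more widely, from 2.77% (CG14421) to 118.6% (CG14423).

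The largest group of neighbours, 5 genes on 3R between bases 29877059 and 29928766, had no host. Beside CG31038, given above, it held CG15517 at 17.6, 21.5 and 22.4 against 3.78, 4.64 and 2.18 CPM and CG15515 at 7.95, 5.59 and 3.18 against 0.840, 1.23 and 0.532 CPM. CG31036 was at 10.4, 12.2 and 7.29 against 2.24, 4.43 and 0.479 CPM and CG15522 at 20.003, 19.6 and 13.9 against 8.30, 9.29 and 7.88 CPM. Of the 2 other tested genes there, trp, a light-activated cation channel of photoreceptors, was at 2.62, 5.59 and 1.79 against 0.653, 1.71 and 0.426 CPM and Capa had a log2 fold change of 0.42, neither past the test. In all, 55 of the 180 genes (30.6%) lay within 20 kb of another, in 21 groups of which 10 held 3 or more, and 7.32% of other CG genes lay that close to one of the 180. The 309 nearest tested neighbours outside the 180 lay at -0.48 at the median of the log2 fold change, and 68.3% were below 0, against 0.06 and 46.7% for all tested genes outside the 180. Of these 309 neighbours 33 fell by the test, beside 3.72% of all genes tested. The nearest tested gene on each side was taken at any distance, as far as 138490 bases for CG43188. Genes that overlap the member itself, its own hosts included, were passed over. Hosts of other members could remain among the neighbours, such as dpr11 beside CG1138 and Cow beside CG17111, which both fell. The neighbour values and the host values are therefore not separate.

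Further groups had hosts that fell or were members themselves. unc-104, the kinesin motor that carries synaptic vesicle precursors, fell from 813, 714 and 658 to 509, 416 and 464 CPM (log2 fold change -0.80, adjusted p = 0.0478, edgeR). Inside it on 2R, CG34189 was at 46.1, 51.9 and 35.3 against 16.7, 19.4 and 18.7 CPM and CG5267 at 25.2, 27.2 and 17.1 against 10.7, 7.26 and 5.85 CPM, both on the opposite strand. CG42392, on the strand of unc-104 and sharing 168 exon bases with it, was at 65.7, 81.3 and 28.4 against 16.05, 27.2 and 23.7 CPM. The member CG7991, on 3L, was at 124, 132 and 108 against 56.9, 39.2 and 48.3 CPM. Of the genes inside it, CG12011 was at 15.8, 23.02 and 12.01 against 3.87, 3.63 and 4.90 CPM, and CG13931 was at 10.3, 14.9 and 10.1 against 2.80, 4.38 and 2.61 CPM. Both were lower by a larger ratio (4.10- and 3.598-fold) than CG7991 itself (2.52-fold).

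Inside CG32521 (Mnr), on X, CG32523 was at 10.7, 7.81 and 3.14 against 1.87, 1.98 and 2.13 CPM and CG1722 at 15.1, 10.1 and 8.59 against 2.38, 6.73 and 2.71 CPM. Inside side-II, CG3491 was at 16.9, 11.7 and 8.43 against 4.43, 3.20 and 2.71 CPM. In all 3 the highest control was replicate 1. CG43694, inside CG4374, was at 19.1, 16.4 and 9.94 against 3.26, 5.61 and 3.09 CPM. Beside it on 3R, CG17380 was at 7.39, 6.19 and 3.99 against 2.38, 2.35 and 2.18 CPM and shares 40.2% of its exon bases with Ir94d, an ionotropic receptor gene on the other strand. Ir94d itself fell from 36.1, 16.7 and 13.4 to 3.45, 3.68 and 5.59 CPM (adjusted p = 0.00768, edgeR). On X, CG1504 was at 29.8, 36.1 and 15.4 against 5.18, 7.26 and 3.41 CPM and CG1631 inside it at 10.8, 2.97 and 7.70 against 2.57, 1.28 and 1.17 CPM.

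X11Lbeta, an adaptor protein gene, fell from 1112, 662 and 535 to 196, 255 and 239 CPM (log2 fold change -1.91, adjusted p = 0.00421, edgeR). Inside it lie CG2111, on its strand, and CG12637, on the other. CG2111 was at 43.1, 15.6 and 19.2 against 8.35, 9.34 and 7.08 CPM, and CG12637 was at 11.7, 13.2 and 5.21 against 1.35, 1.07 and 3.78 CPM. Control replicate 1 was the highest control for X11Lbeta and for CG2111, and replicate 2 for CG12637. pk (prickle), a planar polarity gene, fell from 369, 408 and 310.1 to 197, 221 and 184 CPM (log2 fold change -0.99, adjusted p = 0.0123, edgeR). CG11060 and CG33140 lie inside it, both on its strand. CG11060 was at 40.5, 43.7 and 23.9 against 16.8, 14.4 and 13.8 CPM, and CG33140 was at 20.5, 27.1 and 15.2 against 10.9, 8.54 and 8.35 CPM. dpr11, of a family of immunoglobulin-domain surface proteins of neurons, fell from 140.4, 79.4 and 80.3 to 43.3, 50.6 and 34.1 CPM (log2 fold change -1.40, adjusted p = 0.0182, edgeR). CG2336, inside it, was at 19.5, 9.94 and 6.64 against 4.94, 1.66 and 2.23 CPM. Its neighbours CG1138 and CG31482 are not inside dpr11. CG1138 was at 21.8, 18.1 and 10.6 against 1.17, 4.16 and 1.38 CPM, and CG31482 was at 12.3, 12.2 and 7.61 against 2.10, 4.91 and 1.12 CPM. CG1138 had the largest ratio of the group at 7.53-fold, and 13.2-fold without GMR>Rh-1G69D replicate 2.

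For other nested groups the host did not pass the test. CG4723 (Nepl14, a neprilysin-like gene), CG43092 and CG43093 lie on 3R inside both Usp12-46 and CG7029, whose log2 fold changes were 0.02 and -0.20 with adjusted p-values of 0.972 and 0.522 (edgeR). CG4723 was at 15.95, 24.3 and 15.7 against 6.48, 8.17 and 11.8 CPM and CG43093 at 38.8, 26.4 and 18.6 against 10.4, 16.02 and 13.8 CPM. CG43092 was at 14.5, 14.04 and 13.2 against 8.68, 4.81 and 7.29 CPM. All 3 sat close to the 2-fold limit of the rule. CG18537 and CG18539 lie inside sbb (log2 fold change -0.61, adjusted p = 0.15, edgeR). CG18537 was at 20.4, 11.3 and 11.6 against 5.22, 6.03 and 6.92 CPM, and CG18539 was at 69.4, 89.7 and 45.7 against 40.2, 32.5 and 27.7 CPM. The gene between them, CG18538, missed the limit narrowly, as given below. CG14406, inside Flo2 (log2 fold change -0.44, adjusted p = 0.262, edgeR), was at 16.9, 8.70 and 9.57 against 4.10, 7.37 and 4.10 CPM, and fiz (CG9509), inside the same host, is given above.

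The neighbours without a host included pairs that overlap one another. CG11498 and CG15529, on opposite strands of 3R, share 523 exon bases. CG11498 was at 20.1, 35.99 and 32.9 against 7.93, 9.72 and 3.67 CPM, and CG15529 was at 7.54, 6.89 and 4.44 against 0.979, 3.10 and 1.54 CPM. CG42237 and CG32638, on X, share 191 exon bases on opposite strands. CG42237 was at 14.9, 20.9 and 11.9 against 0.979, 2.51 and 7.82 CPM, and CG32638 was at 93.5, 145 and 112 against 44.6, 52.8 and 59.8 CPM. CG32645, nearby, was at 17.6, 14.9 and 7.82 against 5.08, 5.34 and 3.09 CPM. GMR>Rh-1G69D replicate 3 was the highest stressed library of CG42237 and CG32638 but not of CG32645. On 3L, CG17839 was at 260.4, 197 and 154 against 86.8, 115 and 69.3 CPM, and its neighbour CG34245 is given above. On 3R, CG31157 was at 14.8, 10.4 and 8.88 against 2.47, 3.47 and 2.66 CPM and CG7966 at 13.03, 17.4 and 18.4 against 6.86, 6.83 and 9.10 CPM. CG7084, the neighbour of CG34377, was at 23.5, 35.5 and 16.5 against 7.84, 13.8 and 6.65 CPM, a smaller ratio than that of CG34377.

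Some genes nested alone had hosts known in the eye. These 4 were picked from the list of hosts after their values were seen. so (sine oculis), a homeodomain protein of eye determination, fell from 319, 398 and 327 to 94.4, 139 and 116 CPM (adjusted p = 0.000729, edgeR), and CG11145 lies inside it on the other strand. CG11145 was at 32.9, 50.5 and 24.2 CPM in controls and 5.64, 5.87 and 9.31 CPM under stress. hbs (hibris), an adhesion partner of kirre and roughest, fell from 489.7, 496 and 411 to 160.4, 199 and 157 CPM (adjusted p = 0.00139, edgeR). CG43101, inside it on the other strand, was at 19.3, 30.9 and 9.20 against 8.63, 5.29 and 4.52 CPM. bbg (big bang) fell from 780, 809.6 and 605 to 279, 304 and 319 CPM (adjusted p = 0.00303, edgeR). CG4613, on its strand, was at 11.6, 5.48 and 12.1 against 0.933, 1.76 and 1.28 CPM. norpA, the phospholipase C of phototransduction, fell from 575, 449 and 331 to 229, 264 and 211 CPM (adjusted p = 0.024, edgeR), and CG12693, on the other strand, was at 7.13, 6.33 and 4.52 against 2.80, 2.51 and 2.13 CPM. In all 4 the host was lower in every stressed library than in any control, which the rule required of the nested gene.

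The genes at 50 CPM or more differed from other CG genes of that level in another way, by their length. Their median span was 24074 bases and their median intron length 18764 bases, against 5790.5 and 1595 bases for 768 other CG genes at 50 CPM or more. Of these 35 genes, 20 (57.1%) spanned over 20 kb, against 15.2%. side-VI, side-II, stol, CARPB and CG42238 are examples, at 77795, 64812, 74090, 72227 and 86645 bases. Long genes were lower in general: among all tested genes the median log2 fold change was 0.24 for 5009 genes that span under 2 kb and -0.61 for 305 that span 50 kb or more. The share that fell by the edgeR test was 1.84% and 22.6% in these classes, beside the 3.72% of all genes. Under 20 CPM no member spanned over 20 kb, and among 1441 other CG genes of that level 2.98% did.

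Control replicate 3 stood nearer to the stressed libraries than the other controls did, both over all genes tested and for most of the 180. Over the log2 levels of all genes tested, its Pearson correlation with GMR>Rh-1G69D replicates 1, 2 and 3 was 0.933, 0.946 and 0.956, and with control replicates 1 and 2 it was 0.944 and 0.941. On the first principal component it lay at -9.39, the other controls at -66.98 and -64.9, and the stressed libraries from 33.3 to 62.5. Among the 180 it was the lowest control for 130 (72.2%), replicate 1 for 26 and replicate 2 for 24, while over all genes at 5 CPM or more in controls replicate 3 was the lowest for 27.3% and replicate 1 for 52.7%. The summed CPM of the 180 was 13944, 12540.1 and 9122 in controls and 3959.9, 4775 and 4277 in GMR>Rh-1G69D. Nested genes showed the order as well as the others, with replicate 3 the lowest control in 64 of 83 and 66 of 97. This control held the most salivary and fat body RNA and the most ribosomal RNA, and had the lowest summed level of GMR domain markers among controls. Their part in the order was not tested. Without control replicate 3 the rule took 278 genes, 177 of them among the 180.

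The companion lists of the same tissue moved as follows. Of 20 genes of eye differentiation in the GMR domain, 17 fell by the edgeR test, beside 3.72% of all genes, and none rose. Their median log2 fold change was -1.68, with a range from -3.20 to -0.46. chp (chaoptin), a photoreceptor adhesion protein, fell from 494, 472 and 366 to 48.7, 39.2 and 73.2 CPM (log2 fold change -3.20 ± 0.268 SE, adjusted p = 0.000117, edgeR). sv (shaven), a Pax2-type factor of cone cells, fell from 179, 169.6 and 93.001 to 15.998, 26.4 and 25.9 CPM (adjusted p = 0.000624, edgeR). pros, which did not pass the test, was at 5731, 6986 and 5372 against 3581, 6479 and 4401 CPM. Of 13 neuronal genes 9 fell, beside the same 3.72%, with a median of -1.34. Among them elav was at 2074, 2043 and 1419 against 1218, 1433 and 1434 CPM without passing (log2 fold change -0.59, adjusted p = 0.185, edgeR). Of 12 genes of the ER and the secretory route none fell and 2 rose, beside 1.24% of all genes that rose, with a median of 0.38. The 2 were BI-1, an ER membrane protein that limits cell death, and Sec61beta, a translocon subunit (adjusted p = 0.0209 and 0.0427, edgeR). The lists do not include any of the 180, and kirre, hbs and so belong to the eye list and are hosts as well.

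At the edge of the rule the values on both sides were alike. Just inside the 2-fold limit, CG34300 was at 57.6, 47.5 and 26.7 against 19.9, 23.8 and 21.7 CPM and CG4669 at 54.2, 51.1 and 33.5 against 22.4, 29.1 and 17.5 CPM, with CG43092 as given above. Just outside it, CG8641 was at 33.5, 18.4 and 21.7 against 8.16, 12.4 and 16.2 CPM, CG18538 at 28.5, 35.99 and 23.4 against 15.3, 13.9 and 15.1 CPM and CG10924 at 16.8, 16.8 and 16.9 against 7.04, 10.3 and 8.14 CPM. All 6 had a ratio of stressed to control mean between 0.496 and 0.504. A further 59 CG genes met the level and fold limits but had libraries that overlapped between the genotypes. The largest of these differences came from one library: CG10912 was at 0, 26.3 and 0.0407 CPM in controls and listed at 0 in every stressed library. At the level limit, CG43188 was taken at 5.13 CPM in controls and CG12974 was not at 4.97 CPM.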

How the data were processed

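Nuclear RNA was measured in 3 control and 3 GMR>Rh-1G69D samples, assigned by genotype and replicate number in their labels. Per the submitters' processing notes, alignment by the authors was to dm6 (STAR 2.6.1d) and counting per gene by featureCounts (Subread 1.6.3), and raw counts were deposited. The authors also deposited normalized counts, a signal scaled by 1 size factor per library, and FPKM, counts per gene length and library total. The strand setting is not given in the sources used here. Libraries held 21773452 to 30884519 counts, and their number limits the precision.

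Members and lists were chosen with earlier results of these data known. CPM excluded rRNA symbols. The main test, over all genes, was edgeR 4.0.16 (R 4.3.3) on raw counts with filterByExpr, TMM and the quasi-likelihood F test, adjusted by the Benjamini-Hochberg method at 0.05. Standard errors came from the log2 fold change and its F statistic. The p-values measure the spread between 3 and 3 pooled samples. The pipeline was tested on simulated data. Positions came from the Ensembl release 115 annotation, whose coordinates are those of dm6, and 17340 of 17433 genes were matched by symbol, locus tag or synonym. A gene counted as nested when its span lay wholly within that of another protein-coding gene.

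Named members were the 12 with the largest ratio of control to stressed mean, the 12 with the highest control CPM, 3 just inside and 3 CG genes just outside the fold limit, those within 20 kb of another, and the 12 with the highest control CPM among those with another reference name. Members and hosts named outside this rule were chosen after their values were seen. The alternatives were DESeq2 1.42.0, RLE scaling, no filter, at least 10 counts in every library, a replicate block, a gene length correction (lowess, span 0.5) and both together, limma 3.58.1 on log2 normalized counts (pseudocount 1) and on log2 FPKM (pseudocounts 1 and 0.1), and each library left out. For membership they were totals with rRNA, TMM-scaled totals, the normalized counts, a control minimum of 10 CPM and a stricter fold limit of 3 in place of 2. The gene length correction used exon length, taken from counts and FPKM, and not the span of the gene. Protein features and promoter motifs were planned, but no sequence was used here. Figures were drawn with matplotlib 3.10.9.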

Additional observations from a re-analysis of the deposited data

How the results depend on the processing

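The rule took 180 genes, and 70 when the control mean had to be at least 3 times the stressed mean. It took 125 genes at a control minimum of 10 CPM, 181 with ribosomal RNA in the totals (166 shared with the 180), 220 with TMM-scaled totals (175 shared) and 248 from the authors' normalized counts (180 shared). Leaving out one library gave between 166 and 278 genes, the highest without control replicate 3. The median log2 fold change of the 180 kept its sign under all 16 alternatives to the fit, which their choice for being lower largely set. It ran from -1.72 to -1.44 when a library was left out, with -1.19 in limma on log2 FPKM (pseudocount 1). The edgeR count of members called lower, 113, was 163 in DESeq2, became 62 and 52 in limma on log2 FPKM with pseudocounts of 1 and 0.1, and ranged from 37 to 152 when a library was left out. It was 37 without control replicate 1, 52 without control replicate 2, and 41, 70 and 37 without GMR>Rh-1G69D replicates 1, 2 and 3. The count over all genes, 440, became 957 in DESeq2, 233 and 210 in limma on log2 FPKM, and between 127 and 1199 with a library left out, the highest again without control replicate 3. Hosts and nesting were checked after seeing the data. The 23 hosts outside the 180 that were called lower became 35 in DESeq2, 13 with the block and the length correction, 10 in limma on log2 FPKM with either pseudocount, and 7 to 43 with a library left out. The length correction used exon length, so it did not adjust for span. The share of members inside another gene was 42.8% to 48.9% with a library left out. Fewer samples leave fewer degrees of freedom, and the cause of the other shifts was not tested.

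Whether replicate numbers pair the samples cannot be decided from 3 samples per genotype. The correlations of same-numbered deviations were -0.002, 0.074 and 0.16 for replicates 1, 2 and 3. Samples numbered 2 and 3 correlated best with their own number, and those numbered 1 did not. With a replicate block 481 genes were lower in all, 115 of them members, and with the block and the length correction 393. Of 84 named genes none changed sign under any of these fits. All 84, of which 81 are members, had every stressed library below every control in CPM. Their choice therefore largely set this outcome. Of the 55 genes at 5 to 10 CPM 12 were called, and the part of depth in this was not tested.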

Other observations

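Some nested genes were lower while their host had a log2 fold change above 0. CG30082, inside Ranbp11, a nuclear transport receptor of the importin family, was chosen after its values were seen. It was at 6.21, 11.95 and 5.33 CPM in controls and 2.15, 2.08 and 4.26 CPM in GMR>Rh-1G69D, while Ranbp11 was at 7.39, 5.87 and 13.3 against 15.6, 14.9 and 12.8 CPM (log2 fold change 0.58, edgeR adjusted p = 0.352). CG31019, inside CG2246, was at 12.8, 14.6 and 12.8 against 5.27, 7.42 and 7.18 CPM, and CG2246 at 60.7, 85.0 and 107 against 99.3, 119 and 105 CPM (log2 fold change 0.23, edgeR adjusted p = 0.516). In both pairs the host lies on the opposite strand. Of the 85 pairs of a nested gene and a tested host, 10 had a host above 0, and none of these hosts passed the test.

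The counts of a nested gene, not scaled by length, can be set against those of its host. In 85 pairs whose host had counts in every library, the mean share was lower in GMR>Rh-1G69D in 79 and higher in 6. The libraries of the genotypes overlapped in 48 pairs, all stressed shares lay below all control shares in 36, and all lay above in 1. The choice of the nested genes by their fold favours lower shares. Counts of CG11145 were 10.3, 12.7 and 7.40% of the counts of so in control replicates 1, 2 and 3 and 5.98, 4.21 and 8.01% in GMR>Rh-1G69D, so the groups overlapped. Counts of CG3603 were 10.1, 7.78 and 10.38% of those of kirre in controls and 10.97, 11.1 and 10.40% under stress, the 1 pair with all stressed shares above. Counts of CG17109 were 1.23, 1.11 and 0.902% of those of Cow in controls and 1.87, 1.08 and 1.18% under stress. These pairs were picked after their values were seen, and the values carry no test.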
